A study of Mus musculus with 4 samples.

Results

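The genes for ephrins, Slits and netrins and for their receptors were followed in E13.5 mouse ovaries that overexpress *Sall1*. They were taken from the count table by symbol, as the Epha, Ephb, Efna, Efnb, Slit, Robo, Ntn and Unc5 genes plus *Dcc*, and 38 of the 34682 symbols matched. These were 9 EphA and 5 EphB receptors, 5 ephrin-A and 3 ephrin-B genes, 3 Slit and 4 Robo genes, 4 netrin genes, and 5 netrin receptor genes (4 Unc5 genes and *Dcc*). RNA was measured in 4 libraries of developing ovaries, 2 from mutants (mut) and 2 from wild-type embryos (wt), numbered replicates 1 and 2 in each group. The mutants carry a BAC, integrated by piggyBac into a female ES cell line, in which regulatory elements and promoter of *Wt1* drive the *Sall1* coding sequence in somatic gonadal cells. How many ES cell clones or embryos stand behind each library is not given in the sources used here. The study's methods derive the female ES cell line from C57BL/6J blastocysts. Elsewhere they give a C57BL/6J or a mixed C57BL/6J and 129 background for the ES cells of the transgenic experiments. The wild-type ovaries are called littermates in the study's results and CD1 in its methods, and their column headers read B6, so the strain of the controls is not settled by these sources, and if it differed from that of the mutants, strain and genotype cannot be told apart.

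Ephrins are membrane-bound ligands, GPI-anchored in the A class and transmembrane in the B class, and they bind Eph receptor tyrosine kinases on neighbouring cells, with signals passing into both cells. Slits are secreted and mostly repel cells and axons through Robo receptors, and Slit2 with Robo2 is known for placing the outgrowth of the ureteric bud in kidney development. Netrins are laminin-related secreted proteins that attract through Dcc and repel through Unc5 receptors. Outside the nervous system these families set tissue boundaries and shape vessels, where Efnb2 and its receptor Ephb4 mark arterial and venous endothelium.

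Library totals lay between 11036313 and 17869840 counts, with both mutant libraries below both wild-type libraries. *Sall1* had 113 and 96.0 CPM (a gene's counts per unit of library size, with library sizes scaled by TMM) in the mutant libraries and 16.2 and 12.6 CPM in the wild-type libraries, so that its level followed the labels. Pre-granulosa markers summed to 815 and 804 CPM in the mutant and to 720 and 753 CPM in the wild-type libraries. The 11 Sertoli cell markers summed to 471 and 369 CPM in the mutant and to 433 and 372 CPM in the wild-type libraries. Among them *Amh*, the Sertoli cell hormone, had 3 counts in each library, and *Sox9* had between 48 and 62 counts. Stromal mesenchyme markers summed to 2983 and 1978 CPM in mutant replicates 1 and 2 and to 2788 and 2842 CPM in the wild-type libraries. The sum was thus lowest in mutant replicate 2 and highest in mutant replicate 1, though 12 of the 14 markers had negative log2 fold changes. The sum does not show every stromal gene's course: *Tcf21* and *Pdgfra* were lower in both mutant libraries than in both wild-type libraries. In bulk tissue, fewer cells of a type and less RNA per cell cannot be told apart.

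Levels were compared between genes as RPKM, the CPM per kilobase of annotated exons, averaged over the 4 libraries. By this measure 27 of the 38 genes reached at least 1 RPKM. The B class was the most abundant part of the system. *Efnb1*, the X-linked transmembrane ephrin, had the highest level of all members with 41.8 and 39.7 RPKM in the mutant libraries and 40.3 and 40.0 RPKM in the wild-type libraries. *Ephb4* followed with 36.7 and 33.8 RPKM in mutant and 29.8 and 31.6 RPKM in wild-type libraries. Neither gene's range reached that of *Efna1*, the third in order, which had 24.3 and 23.1 RPKM in mutant and 27.0 and 27.1 RPKM in wild-type libraries.

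**Figure D1:**
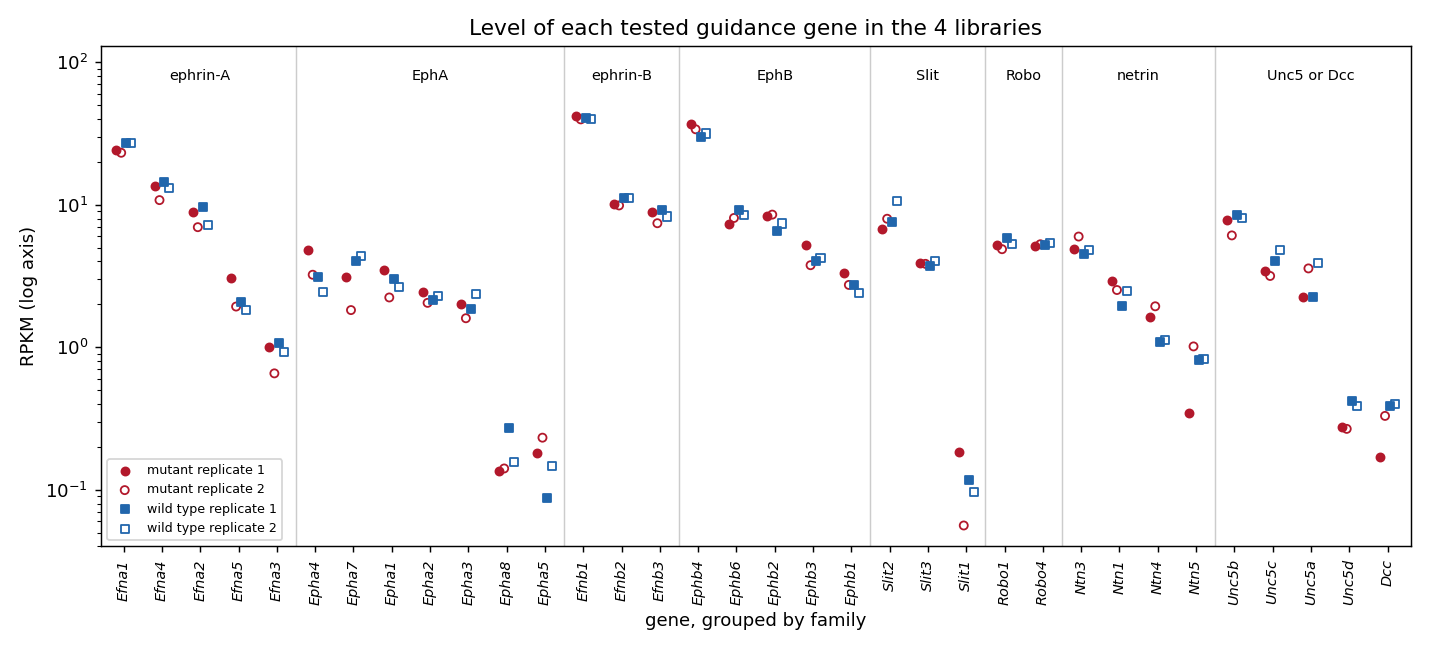
RPKM on a log axis (vertical) of the 34 tested genes (horizontal, by family and falling mean level), with 1 symbol per library, circles for mutant and squares for wild type, filled for replicate 1 and open for replicate 2. *Efnb1*, *Ephb4* and *Efna1* lie highest, and the 4 libraries lie close together for most genes.

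Among the other ephrins, *Efna4*, *Efnb2*, *Efnb3* and *Efna2* had mean levels from 8.16 to 12.9 RPKM, and *Efna5* and *Efna3* had 2.21 and 0.917 RPKM. The EphB receptors were all above the most abundant EphA receptor except *Ephb1*: *Ephb6*, a receptor without kinase activity, had a mean of 8.23 RPKM, *Ephb2* 7.71, *Ephb3* 4.32 and *Ephb1* 2.80 RPKM. Another 5 genes, all EphA receptors, were measured between 1.96 and 3.39 RPKM, in the order *Epha4*, *Epha7*, *Epha1*, *Epha2*, *Epha3*, but the ranges of neighbours in this order overlapped over the libraries. *Epha8* and *Epha5* stayed at 0.176 and 0.162 RPKM.

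Slit ligands were represented by *Slit2* and *Slit3*, with means of 8.23 and 3.87 RPKM, against 0.113 RPKM for *Slit1*. On the receptor side *Robo1*, a neuronal and epithelial Slit receptor, and *Robo4*, the endothelial family member, had near-equal means of 5.30 and 5.27 RPKM. *Robo2* and *Robo3* were close to absent: *Robo2* had 0 and 6 counts in the mutant and 1 and 2 counts in the wild-type libraries, and *Robo3* 4 and 2 counts in the mutant and 4 and 5 in the wild-type libraries. A count of 3 per library was taken as the floor for detection, so that *Robo2* stood above it in mutant replicate 2 alone. *Epha6*, with between 1 and 6 counts, and *Epha10*, with 2 counts in mutant replicate 2 and 0 elsewhere, completed the 4 genes that did not pass the filter on low counts.

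The netrin ligands ran from *Ntn3* with 5.03 RPKM over *Ntn1* with 2.47 and *Ntn4* with 1.44 to *Ntn5* with 0.750 RPKM. Their receptors were led by *Unc5b*, known from endothelial tip cells, with 7.59 RPKM, followed by *Unc5c* with 3.86 and *Unc5a* with 2.99 RPKM. *Unc5d* and *Dcc* stayed under 1 RPKM, at 0.338 and 0.322 RPKM. Reads of some members could be shared with other genes, also across strands, as strand handling is not given. Of the annotated exon bases, *Ntn5* shares 407 with *Sec1* and *Epha1* shares 160 with *Zyx*, both on the opposite strand. With lincRNAs on the opposite strand, *Efna3* shares 344, *Efna4* 168, *Ephb1* 152 and *Ntn3* 139. On their own strand, *Ntn3* shares 89 with *Tbc1d24* and *Ntn1* 127 with a processed transcript. *Epha6*, *Epha10*, *Unc5a* and *Ephb4* share between 33 and 107 with genes on the opposite strand.

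To ask which guidance genes differ in ovaries with *Sall1* expression, all 15442 genes that passed the filter were fitted together with edgeR's quasi-likelihood test and Benjamini-Hochberg adjustment. None of the 34 members tested had an adjusted p under 0.05, a threshold that 0.0583% of all genes tested passed. At an unadjusted p under 0.05 there were 4 members, 2 with higher and 2 with lower levels in the mutants, while 5.69% of all genes did so. DESeq2 called 0 members as well, where it called 0.694% of the genes with an adjusted p, and gave 3 members at an unadjusted p under 0.05, a level reached by 3.56% of all genes. The log2 fold changes (mutant minus wild type) of the members lay between -0.79 and 0.82, with 14 positive, 20 negative and a median of -0.076, against a median of -0.00088 over all genes. Without mutant replicate 2 the members' median was 0.0015.

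**Figure D2:**
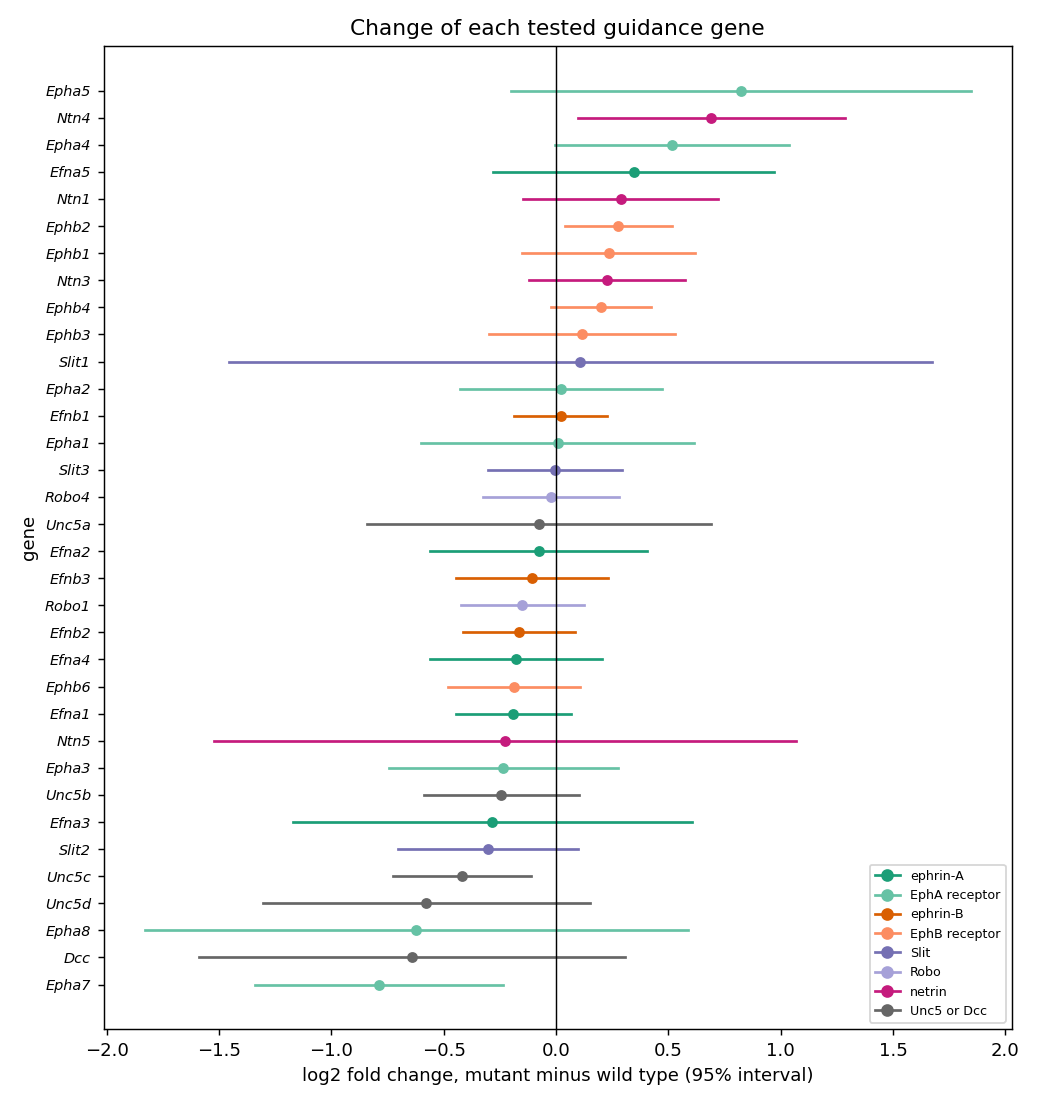
Log2 fold change of mutant minus wild type (horizontal) for each of the 34 tested genes (vertical), with 95% intervals from edgeR's quasi-likelihood fit as bars and families as colours. The intervals of *Epha7*, *Unc5c*, *Ephb2* and *Ntn4* exclude 0 before adjustment for the number of genes, and all others include it.

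Sequence before the transcription start is shown for the 4 members with the smallest p, *Epha7* and *Unc5c* with lower and *Ephb2* and *Ntn4* with higher mutant values. None of the 4 had an adjusted p under 0.05 in the edgeR fit described above. The 250 bases before the start were taken from RefSeq on GRCm38.p6, a later build than that of the gene positions given with each gene, at chr4:28812895-28813144 (plus strand), chr3:141465314-141465563 (plus), chr4:136836013-136836262 (minus) and chr10:93640799-93641048 (plus). SALL proteins are known to bind A/T-rich DNA with their last zinc finger cluster, so the letters ATATT were searched on both strands (AATAT on the printed strand counts too) and are in capitals where found.
Epha7: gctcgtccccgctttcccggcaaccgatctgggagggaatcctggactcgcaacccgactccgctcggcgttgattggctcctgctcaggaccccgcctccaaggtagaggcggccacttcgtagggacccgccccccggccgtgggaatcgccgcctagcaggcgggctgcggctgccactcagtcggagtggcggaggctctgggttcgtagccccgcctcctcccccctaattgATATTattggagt
Unc5c: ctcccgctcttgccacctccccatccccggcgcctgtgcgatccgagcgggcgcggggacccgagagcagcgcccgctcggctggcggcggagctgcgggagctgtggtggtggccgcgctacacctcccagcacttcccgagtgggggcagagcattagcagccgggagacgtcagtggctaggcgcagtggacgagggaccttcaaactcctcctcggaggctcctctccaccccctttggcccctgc
Ephb2: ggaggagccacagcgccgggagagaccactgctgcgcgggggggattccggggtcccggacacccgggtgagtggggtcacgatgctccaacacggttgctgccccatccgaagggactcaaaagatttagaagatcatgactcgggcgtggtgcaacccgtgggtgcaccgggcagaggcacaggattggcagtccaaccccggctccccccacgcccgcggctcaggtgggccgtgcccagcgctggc
Ntn4: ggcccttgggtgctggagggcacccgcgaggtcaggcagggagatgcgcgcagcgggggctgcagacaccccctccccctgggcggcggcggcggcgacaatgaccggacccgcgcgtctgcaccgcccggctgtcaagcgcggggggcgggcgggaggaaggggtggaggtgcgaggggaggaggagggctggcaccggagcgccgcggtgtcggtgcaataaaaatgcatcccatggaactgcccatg
The *Epha7* window shown holds 1 match, next to the more downstream of the gene's listed starts, and the other 3 windows shown hold 0. The window of the other listed *Epha7* start, from position 28812881, holds 0 matches, so the match depends on the start chosen. G and C made up 66.8% of the *Epha7*, 71.2% of the *Unc5c*, 68.4% of the *Ephb2* and 73.2% of the *Ntn4* window, against a median of 52.4% over all 32851 windows of this length. RefSeq windows were matched for 33 of the 38 members, with 38 windows in all, of which 5 (13.2%) held the letters, compared with 23.3% of all windows. A match is a description of the letters only.

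*Epha7*, an EphA receptor known for repelling axons, had the smallest p of the members (rank 1). It lies on chromosome 4 from 28740281 to 28894649 (plus strand, GENCODE M1 on NCBIM37). It had 30.6 and 18.0 CPM in the mutant libraries, both below the 40.0 and 43.3 CPM of the wild-type libraries. The means were 24.3 ± 8.88 CPM (SD, n = 2) and 41.6 ± 2.34 CPM (SD, n = 2). The log2 fold change was -0.79 with a standard error of 0.23 (unadjusted p = 0.0119, adjusted p = 0.575 in edgeR's quasi-likelihood test, adjusted p = 0.119 in DESeq2). Its difference was larger in replicate pair 2, at -1.26 on the log2 scale, than in pair 1, at -0.39. Without mutant replicate 1 the log2 fold change was -1.21 and passed (adjusted p = 0.00598, edgeR), in a fit that called 0.81% of all genes, and without mutant replicate 2 it was -0.45 and did not (adjusted p = 0.492, edgeR). With the replicate number as a block *Epha7* was the only member called (adjusted p = 0.0103, edgeR), in a fit that called 2.49% of all genes. The stromal mesenchyme markers had negative log2 fold changes in 12 of 14 genes with a median of -0.36, and their sum was lowest in mutant replicate 2, as was *Epha7*. The stromal genes *Tcf21* (-1.04 and -1.15 on the log2 scale) and *Pdgfra* (-0.47 and -0.65) were lower in replicate pairs 1 and 2. DESeq2 called both (adjusted p = 2.79e-06 and 0.00699), and edgeR's fit without the block called neither (adjusted p = 0.0811 and 0.301). None of the 14 markers was at 0 counts, and their part in the *Epha7* values was not tested.

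*Epha4*, which binds ephrins of both classes, had values on the other side: 30.2 and 20.4 CPM in the mutant libraries against 19.8 and 15.5 CPM in the wild-type libraries. The mutant libraries lay above the wild-type ones, but by little between mutant replicate 2 and wild-type replicate 1. Its log2 fold change was 0.52 with a standard error of 0.22 (unadjusted p = 0.0519, adjusted p = 0.883, edgeR), and it was 0.61 and 0.40 in replicate pairs 1 and 2. Without mutant replicate 1 it was 0.21, and without mutant replicate 2 it was 0.78. *Epha5* had 1.81 and 2.33 CPM in mutant and 0.872 and 1.47 CPM in wild-type libraries, with a log2 fold change of 0.82 and a standard error of 0.43, so that the largest positive value of the list rested on between 15 and 35 counts per library and moved to 0.50 and 1.26 without wild-type replicates 1 and 2. *Epha4* and *Epha7* had nearly the same mean level over the libraries, so their opposite log2 fold changes also appear as a switch of order. In both wild-type libraries *Epha7* was above *Epha4* in RPKM (4.05 against 3.12 and 4.38 against 2.44). In mutant replicate 1 it was below (3.09 against 4.77) and in mutant replicate 2 too (1.82 against 3.22). The switch restates these changes, neither of which passed in the fit of all libraries without the block, and is no further result. The other EphA receptors tested, *Epha1*, *Epha2*, *Epha3* and *Epha8*, had log2 fold changes between -0.62 and 0.021, none with an adjusted p under 1.00 in edgeR's test.

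Of the 5 EphB receptors, 4 had positive log2 fold changes, and for *Ephb1*, *Ephb2* and *Ephb4* both mutant libraries were above both wild-type libraries, a separation in that direction found in 15.8% of all genes tested. The groups of *Ephb3* overlapped. *Ephb6* was separated in the other direction, as were 15.1% of all genes tested. It had 27.6 and 30.4 CPM in mutant and 34.4 and 31.7 CPM in wild-type libraries. Its log2 fold change was -0.19 with a standard error of 0.12. *Ephb2* (chromosome 4, 136203454 to 136391903, minus strand) had 106 and 107 CPM in mutant and 82.8 and 93.0 CPM in wild-type libraries. Its log2 fold change was 0.28 with a standard error of 0.10 (unadjusted p = 0.0283, adjusted p = 0.769, edgeR). *Ephb4* had 170 and 157 CPM in mutant and 138 and 147 CPM in wild-type libraries, a log2 fold change of 0.20 with a standard error of 0.094 (adjusted p = 0.949, edgeR). Its ligand gene *Efnb2* was on the other side, with 48.4 and 47.3 CPM in mutant and 53.6 and 53.7 CPM in wild-type libraries, and a log2 fold change of -0.16 with a standard error of 0.10 (adjusted p = 1.00, edgeR). The 12 endothelial markers summed to 583 and 561 CPM in mutant and to 602 and 644 CPM in wild-type libraries, and 8 of them had negative log2 fold changes, with a median of -0.11. *Robo4*, the endothelial Robo gene, had 21.2 and 21.7 CPM in mutant and 21.3 and 22.3 CPM in wild-type libraries and a 95% interval of its log2 fold change from -0.32 to 0.28. The part of endothelial content in these values was not tested.

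Of the 5 ephrin-A genes 4 had lower values in the mutant library of both replicate pairs, beside 27.3% of all genes tested. *Efna5* had higher ones, beside 26.5%. Both mutant libraries were below both wild-type libraries for 1 of the 5, *Efna1*, a separation found in 15.1% of all genes tested. *Efna1*, the most abundant of them, had 44.5 and 42.3 CPM in mutant and 49.3 and 49.6 CPM in wild-type libraries. Its groups did not overlap, and its log2 fold change was -0.19 with a standard error of 0.11 (adjusted p = 1.00, edgeR). *Efnb1* had 144 and 137 CPM in mutant and 139 and 138 CPM in wild-type libraries, with overlapping groups and a log2 fold change of 0.020. Its 95% interval, from -0.19 to 0.23, was the narrowest of the list.

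**Figure D3:**
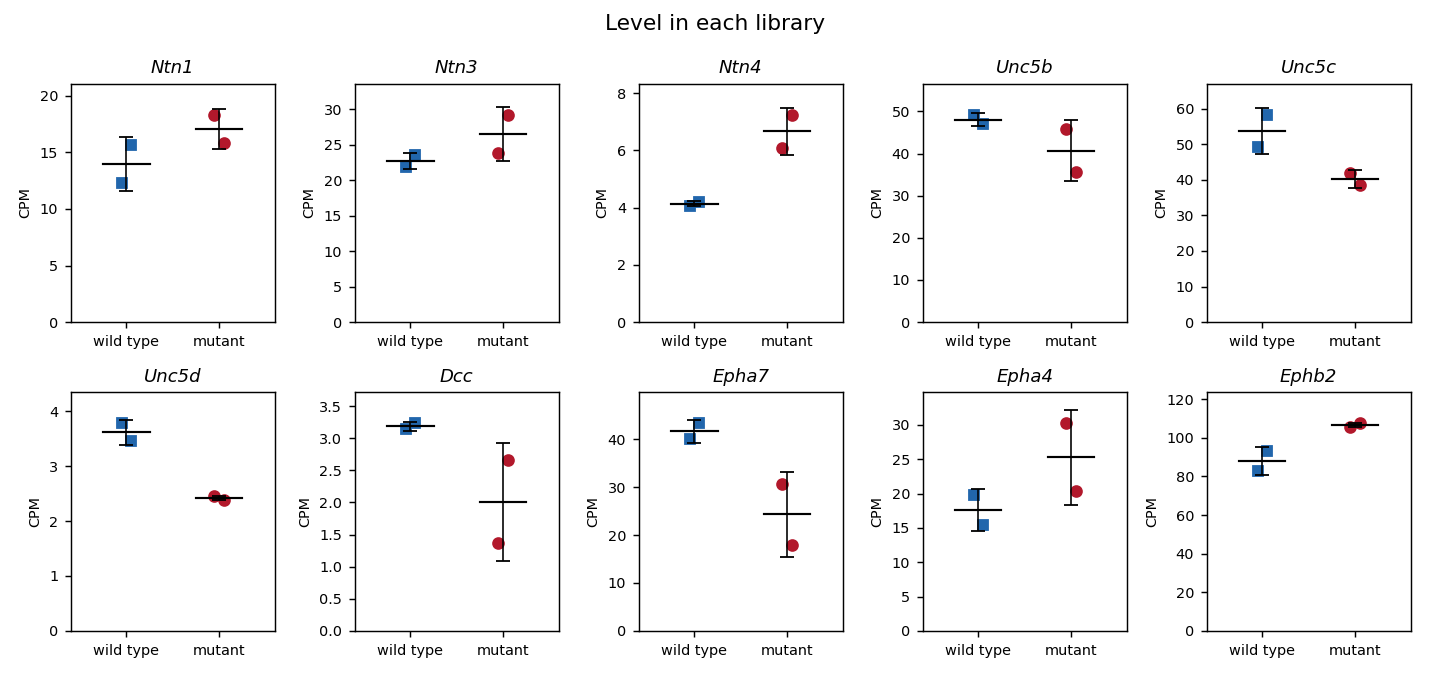
CPM (vertical axes from 0) of 10 members in the wild-type (squares) and mutant (circles) libraries, with the mean as a line and the SD of 2 libraries as bars. The mutant libraries lie above the wild-type libraries for *Ntn1*, *Ntn3*, *Ntn4*, *Epha4* and *Ephb2*, and below for *Unc5b*, *Unc5c*, *Unc5d*, *Dcc* and *Epha7*. Groups were apart for all 10 genes drawn, which were not picked by a stated rule, but for only 18 of the 34 tested members. Over all genes tested, 15.8% had both mutant libraries above both wild-type libraries and 15.1% below. *Ntn5* and *Unc5a*, whose groups overlap, are not drawn.

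No netrin or netrin receptor gene passed the test. For *Ntn1*, *Ntn3* and *Ntn4*, 3 of the 4 netrin genes, both mutant libraries were above both wild-type libraries, as in 15.8% of all genes, while *Ntn5* had overlapping groups. *Ntn4*, a basement membrane netrin, on chromosome 10 from 93103426 to 93209952 (plus strand), had 6.08 and 7.25 CPM in mutant and 4.07 and 4.19 CPM in wild-type libraries. The gap between the groups was wider than the spread within each, with a log2 fold change of 0.69 and a standard error of 0.25 (unadjusted p = 0.0285, adjusted p = 0.769, edgeR). *Ntn3* had 23.9 and 29.2 CPM in mutant and 21.9 and 23.5 CPM in wild-type libraries, and a log2 fold change of 0.23 with a standard error of 0.15, which was 0.36 without mutant replicate 1 and 0.070 without mutant replicate 2. *Ntn1*, the ligand best known from the floor plate of the neural tube, had 18.3 and 15.8 CPM in mutant and 12.3 and 15.6 CPM in wild-type libraries, so that nearly all of its difference lay in replicate pair 1. *Ntn5* had 6 and 24 counts in the mutant and 22 and 23 counts in the wild-type libraries, and a log2 fold change of -0.23.

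By sign alone all 5 netrin receptor genes were lower in the mutant library of both replicate pairs, as were 27.3% of all genes tested. For *Unc5a* the difference in pair 1 was only -0.0018 on the log2 scale. For the other 4 both mutant libraries were below both wild-type libraries, as in 15.1% of all genes. *Unc5c*, a repulsive netrin receptor on chromosome 3 from 141128528 to 141497888 (plus strand), had 42.0 and 38.5 CPM in mutant and 49.2 and 58.3 CPM in wild-type libraries. Its log2 fold change was -0.42 with a standard error of 0.13 (unadjusted p = 0.0149, adjusted p = 0.625, edgeR), and it was -0.23 and -0.60 in replicate pairs 1 and 2. *Unc5d* had 2.45 and 2.39 CPM in mutant and 3.78 and 3.46 CPM in wild-type libraries, with a log2 fold change of -0.58 and a standard error of 0.31. *Dcc*, the attractive receptor, had 1.36 and 2.66 CPM in mutant and 3.14 and 3.23 CPM in wild-type libraries, from 15 and 40 against 54 and 57 counts. Mutant replicate 1 was the low one for *Dcc*, and its log2 fold change of -0.64 was -0.26 without it and -1.22 without mutant replicate 2, in contrast to *Unc5c* and *Epha7*. *Unc5b* had 45.8 and 35.6 CPM in mutant and 49.2 and 46.9 CPM in wild-type libraries and a log2 fold change of -0.24 with a standard error of 0.15, which was -0.43 without mutant replicate 1 and -0.071 without mutant replicate 2. *Unc5a* differed more between replicates than between genotypes, with 9.35 and 14.9 CPM in mutant and 9.36 and 16.3 CPM in wild-type libraries. Neuron and glia markers had negative log2 fold changes in 8 of 9 tested genes with a median of -0.44, and their 13 genes summed to 88.4 and 74.4 CPM in mutant and to 124 and 93.2 CPM in wild-type libraries. Skeletal muscle markers were negative in 10 of 12 genes with a median of -1.07 and summed to 188 and 129 CPM in mutant and to 396 and 125 CPM in wild-type libraries. The stromal markers, negative in 12 of 14 genes, are given above, and the part of these cell types in the netrin receptor values was not tested.

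In edgeR's fit without the replicate block, no Slit or Robo gene passed or reached an unadjusted p under 0.05. With the block, *Slit2* did not pass either (unadjusted p = 0.00479, adjusted p = 0.12, edgeR). *Slit2* had 102 and 120 CPM in mutant and 114 and 160 CPM in wild-type libraries, with overlapping groups, a log2 fold change of -0.30 and a standard error of 0.17 (adjusted p = 1.00, edgeR). Wild-type replicate 2 was the high library, and without it the log2 fold change was -0.030, against -0.52 without wild-type replicate 1. *Slit3* had between 22.7 and 24.3 CPM in all libraries, and its 95% interval was from -0.30 to 0.29. *Robo1*, on chromosome 16 from 72663394 to 73046340 (plus strand), had 49.4 and 46.5 CPM in mutant and 56.1 and 50.3 CPM in wild-type libraries, which did not overlap, with a log2 fold change of -0.15 and a standard error of 0.12, which was -0.067 without wild-type replicate 1.

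Within the same-numbered pairs of libraries, 17 of the 34 members were lower in the mutant library in both pairs, 9 were higher in both and 8 had opposite signs. These counts go by sign alone and include differences as small as -0.0018, for *Unc5a* in pair 1. Over all genes tested 27.3% were lower and 26.5% higher in both pairs. Same-numbered libraries also have neighbouring library numbers in the column headers, but the labels do not say what they share, so the pairs are given as a description. The members' median difference was -0.0042 in pair 1 and -0.13 in pair 2, against -0.00027 and -0.0042 over all genes, so the members' lower median came from pair 2. Both mutant libraries lay below both wild-type libraries for 10 members and above them for 8, beside 15.1% and 15.8% of all genes tested. For any single gene, exchanging the labels of 4 libraries gives an exact two-sided p of 0.333 at best.

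**Figure D4:**
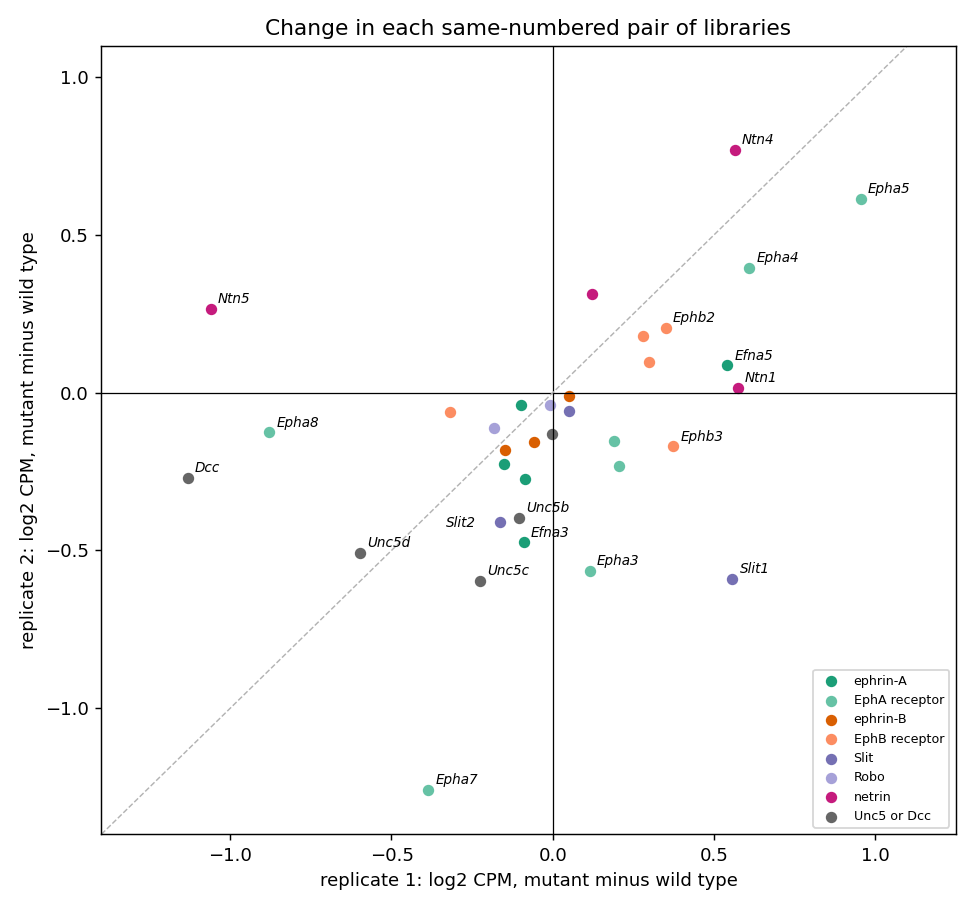
Log2 CPM of mutant minus wild type in replicate pair 1 (horizontal) and pair 2 (vertical) for the 34 tested genes, coloured by family, with the dashed line marking equal differences. *Ntn4*, *Epha5* and *Epha4* lie in the upper right, *Epha7*, *Unc5c*, *Unc5d* and *Dcc* in the lower left, and *Epha7* is farthest down, at -1.26 in pair 2.

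Other genes of the same pathways, such as adaptors, exchange factors and co-receptors, were taken from lists of 82 genes, of which 78 were tested. None was called by edgeR or by DESeq2 at an adjusted p under 0.05, and 7 had an unadjusted p under 0.05 in edgeR's test, beside 5.69% of all genes, and 3 in DESeq2's, beside 3.56%. Their median log2 fold change was -0.012, with 34 positive and 44 negative. The 26 tested genes of Eph signalling had a median of -0.032, the 24 of Slit-Robo signalling 0.016 and the 28 of netrin signalling -0.025. With the replicate block 3 of the 78 genes passed, all from the netrin list, beside 2.49% of all genes, so that this count is no result about the list. *Ablim3*, an actin-binding LIM protein, had 22.6 and 16.5 CPM in mutant and 34.1 and 31.9 CPM in wild-type libraries, with a log2 fold change of -0.76 (adjusted p = 0.347 without and 0.00329 with the replicate block, edgeR). It also passed without mutant replicate 1 (adjusted p = 0.0232, edgeR). *Ablim1*, of the same family, was on the other side with 83.5 and 94.1 CPM in mutant and 63.8 and 69.0 CPM in wild-type libraries, a log2 fold change of 0.42 (adjusted p = 0.475 without and 0.0203 with the replicate block, edgeR). *Flrt2*, a membrane protein that binds Unc5 receptors, had 92.3 and 91.2 CPM in mutant and 115 and 134 CPM in wild-type libraries, a log2 fold change of -0.44 (adjusted p = 0.417 without and 0.0141 with the replicate block, edgeR). For all 3 genes the mutant and wild-type libraries did not overlap, but they were named for passing a fit, which favours such a separation. Of the 78 tested genes, both mutant libraries lay below both wild-type libraries for 15 and above them for 10. The shares of all genes tested were 15.1% and 15.8%.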

How the data were processed

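The deposited values are raw counts per gene symbol, which the authors made with STAR v2.6.1d and the R function summarizeOverlaps, with mm9 named in the submitters' processing notes; the annotation and strand handling are not given in the sources used here. Each of the 4 count columns could be tied to its library through the genotype and number in the header (0 unused). Libraries of a group differed by more than sampling noise (chi-square per degree of freedom 12.3 in mut and 14.2 in wt), but the labels do not say that they came from separate animals, so p-values measure the spread between these libraries.

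Counts were analysed in R 4.3.3 with edgeR 4.0.16 (filterByExpr, TMM, quasi-likelihood F-test, Benjamini-Hochberg over all genes, genotype as the only factor). The F statistic gave the standard errors and 95% intervals. Log2 CPM used a prior count of 2, and RPKM the union of exons in GENCODE M1 on NCBIM37 (mm9). DESeq2 1.42.0, which the authors used, RLE normalization, other filters, a replicate block and leaving out each library were alternatives. With a library left out, the lone library is assumed to vary like the others. The floor of 3 counts covers counting error only.

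The members, and the lists of pathway genes and markers, were chosen with earlier results of these data known. Values in each library are given for the 12 members with the smallest p, the most abundant member of each family, members called in any of the fits without and with the block or by DESeq2, and up to 8 called pathway genes. Other members shown beside them (such as Efnb2, Robo4, Ntn1, Ntn5 and Unc5a) were chosen after their values were seen.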

Additional observations from a re-analysis of the deposited data

How the results depend on the processing

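The count of genes called, 9 of those tested, was 105 with DESeq2, 28 with no filter on low counts, 19 with at least 10 counts in every library and 385 with the replicate block, and ranged from 4 to 130 with each library left out, highest without mutant replicate 1 and lowest without wild-type replicate 2. Members called were 0 in all of these but the replicate block and the fit without mutant replicate 1, which each gave 1, *Epha7* (range with a library left out 0 to 1). Pathway genes called were 3 with the replicate block and 0 to 1 with a library left out. The same-numbered libraries deviated together with a correlation across genes of 0.481, a description of 2 pairs that share a replicate number in the labels and neighbouring library numbers in the headers; with the block the common dispersion was 0.00639 in place of 0.0210, and the cause of the added calls was not tested. For the 15 members whose values are given by rule, 132 values under the 9 alternatives kept their sign and stayed above the threshold, and the other 3 were the 2 calls of *Epha7* and *Efnb1*, whose log2 fold change ranged from -0.019 to 0.055 with each library left out. The members' median ranged from -0.16 to 0.0015 with each library left out. *Sall1* passed under each alternative. With 2 libraries a group, differences of the size seen for most members could not be told from the spread.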
